A study of Mus musculus with 8 samples.

Results

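The AP-1 genes described here are Fos, Fosb, Fosl1, Fosl2, Jun, Junb, Jund, Atf3, Batf and Maff, chosen by name as the Fos and Jun families with 3 of their inducible partners. They are 10 of the 37980 gene rows of the deposited table, and 9 of the 10 were among the 11451 genes tested. RNA was sequenced from multipotent progenitors (MPPs) of mouse bone marrow, cells that still form all blood lineages, sorted as Lin-CD48-ckit+Sca1+CD135+CD150-. The NA group carried the Nup98-Hoxa10hd fusion gene, which joins part of a nucleoporin to the DNA-binding homeodomain of Hoxa10. In NA mice the fusion was placed in the Rosa26 locus and was released by Vav-Cre, which is active across blood cells. The WT group came from wild-type mice, and whether these carried Vav-Cre is not stated. All mice were C57BL/6, no treatment was named, and age was not given for either group. There were 4 NA MPP and 4 WT MPP libraries, named here NA1 to NA4 and WT1 to WT4, each from 1000 sorted cells. How many mice stood behind the aliquots was not given, so p-values measure the spread between aliquots, which may be technical.

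AP-1 is a dimer of proteins with a basic leucine zipper, a coiled helix that holds the pair together above the DNA. Jun proteins pair with themselves or with Fos proteins, whereas Fos proteins need a partner. Dimers of Fos and Jun prefer the element TGANTCA, and dimers with Atf or Creb proteins prefer the cyclic AMP element TGACGTCA. Fos, Fosb, Jun, Junb and Atf3 are immediate early genes: serum, cytokines and stress raise their RNA within minutes through MAP kinases, without new protein synthesis, and the RNA is short-lived. In blood progenitors AP-1 genes are known as targets of cytokine signalling and as genes that also respond to cell isolation.

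Promoter sequence is shown for the 5 inducible genes of the set that were higher in NA MPPs by the test described below. Each stretch ends at the base before a RefSeq start site (GRCm38.p6, the same assembly as mm10), is read 5′ to 3′ on the gene's strand, and has in capitals the letters TGACG, with TGACGTCA, TGACATCA or TGACGCAA in full where it holds them. Fos lies at chr12:85473790-85473889 (+), Fosb at chr7:19310046-19310145 (-), Jun at chr4:95052223-95052322 (-), Junb at chr8:84978749-84978898 (-), and Maff at chr15:79347420-79347519 (+), the last at an internal start of that gene.
Fos: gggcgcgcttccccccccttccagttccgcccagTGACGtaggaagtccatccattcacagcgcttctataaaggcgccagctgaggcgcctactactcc
Fosb: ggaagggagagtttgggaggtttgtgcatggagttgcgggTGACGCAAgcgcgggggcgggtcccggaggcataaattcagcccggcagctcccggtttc
Jun: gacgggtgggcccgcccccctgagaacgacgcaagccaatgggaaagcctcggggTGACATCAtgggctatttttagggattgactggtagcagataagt
Junb: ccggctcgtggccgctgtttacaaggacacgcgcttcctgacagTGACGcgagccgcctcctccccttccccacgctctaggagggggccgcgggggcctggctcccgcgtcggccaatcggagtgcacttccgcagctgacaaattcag
Maff: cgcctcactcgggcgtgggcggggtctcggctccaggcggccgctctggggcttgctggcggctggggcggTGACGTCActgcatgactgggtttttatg

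The letters TGACG, searched on both strands of the 250 bases upstream, were in at least 1 window of 6 of the 9 members with a RefSeq promoter entry and in 17.8% of 32851 such windows. Fos held them 66 and 129 bases upstream of its start, Fosb 60, Junb 106, Batf 98 and Atf3 7 bases upstream, the last on the reverse strand. TGACG is part of both TGACGTCA and TGACGCAA, so these are not separate matches. The full TGACGTCA was found in Maff, which has 3 windows, 29 bases upstream of an internal start, and in 1.55% of all windows. TGACATCA, in 2.93% of all windows, was 45 bases upstream of the start of Jun and 45 bases upstream of another start of Maff, and Fosb held TGACGCAA (0.438%). TGANTCA, in 6.75% of all windows, and the CArG box bound by serum response factor, in 1.47%, were in 0 of the 9 members' windows of this length. None of the letters searched was in the windows of Fosl2 or Jund. These letters were chosen with the sequences in view, and a match is a description of the window.

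Fos, Fosb, Jun, Jund, Junb and Maff were higher in NA than in WT MPPs, Batf was lower, and Fosl2 and Atf3 did not pass the test. The test was limma on log2(normalised count + 1), with p-values adjusted by Benjamini-Hochberg over all 11451 genes and a threshold of 0.05. It called 7 of the 9 members, where it called 17.9% of all genes tested. The 6 higher members stand beside 10.1% of all genes called higher, and the 1 lower member beside 7.87% called lower. The 4 NA and 4 WT values did not overlap in 5 of the 9 members and in 22% of all genes tested. The median log2 fold change was 1.81 over the 9 members and -0.01 over all genes. In bulk RNA, a larger share of cells with a transcript and more transcript per cell cannot be told apart.

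**Figure D1:**
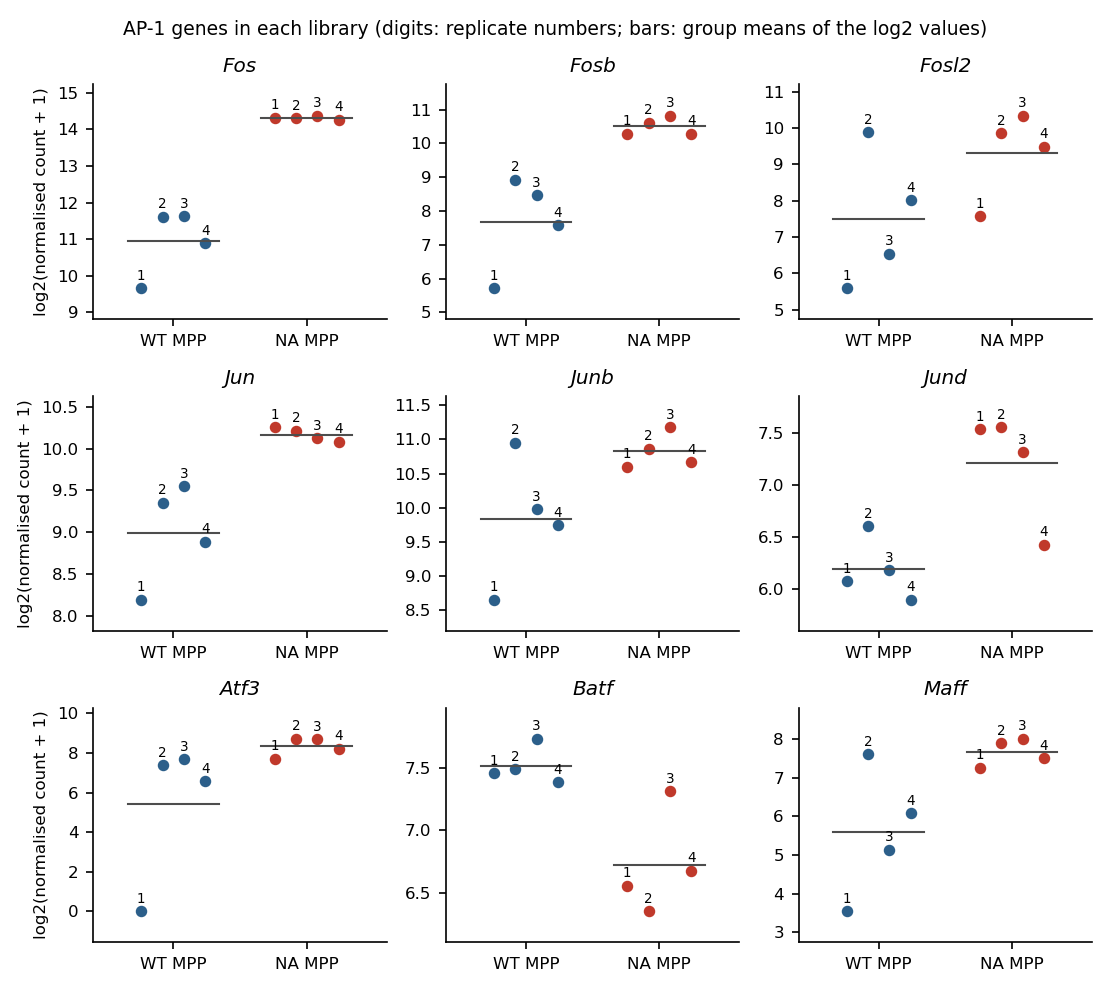
Each panel plots 1 AP-1 gene as log2(normalised count + 1) in the 4 WT MPP (blue) and 4 NA MPP (red) libraries, with replicate numbers beside the points and bars at the group means of the log2 values. The groups stand apart without overlap in Fos, Fosb, Jun, Atf3 and Batf, and WT1 lies at the bottom of the WT group in 7 panels, at 0 for Atf3.

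Fos encodes the founding Fos protein, a partner of Jun that cannot pair with itself. Its normalised counts were 20422, 20355, 21297 and 19676 in NA1 to NA4. They were 804, 3128, 3154 and 1904 in WT1 to WT4. Every NA library was above every WT library, and the NA values lay close together (coefficient of variation 3.25%) while the WT values were spread (50.1%). The log2 fold change was 3.37 (SE 0.31, 95% confidence interval 2.72 to 4.03, adjusted p = 7.46e-06), or 10.4-fold. Fos held from 0.429% to 0.470% of all normalised counts in NA libraries and from 0.0190% to 0.0715% in WT libraries. It ranked between the 12th and the 14th most abundant gene in the NA libraries and between the 135th and the 787th in the WT libraries.

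Fosb encodes a second Fos protein, whose shorter splice form lacks the activation domain. Fosb had 1248, 1562, 1809 and 1248 normalised counts in NA1 to NA4 and 51.5, 485, 352 and 191 in WT1 to WT4. The groups did not overlap, and WT1 was 9.41-fold below WT2, the highest of its group. NA MPPs exceeded WT MPPs by 2.83 on the log2 scale (SE 0.47, 95% confidence interval 1.81 to 3.85, adjusted p = 0.001234). The table gives 1 value per gene, so the splice forms were not told apart.

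Fosl2 and Fosl1 encode the Fos-related antigens, which lack the strong activation domains of Fos. Fosl2 had 189, 930, 1294 and 713 normalised counts in the NA libraries and 47.1, 944, 92.2 and 257 in the WT libraries. WT2 lay above NA1, NA2 and NA4, and the values spread 6.86-fold within NA and 20.1-fold within WT. The log2 fold change of 1.81 (95% confidence interval 0.24 to 3.37, not adjusted for the number of genes) missed the threshold (adjusted p = 0.101). It passed without NA1 (2.39, adjusted p = 0.03507) or without WT2 (2.60, adjusted p = 0.009611). Fosl1 was listed at 0 in 7 libraries and at 0.923, about 1 read, in NA3, and was not tested.

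Jun encodes c-Jun, the activator that N-terminal Jun kinases phosphorylate. Jun had 1222, 1185, 1112 and 1082 normalised counts in the NA libraries and 291, 652, 750 and 472 in the WT libraries. No values overlapped, the NA libraries again lay close together (coefficient of variation 5.62%), and WT1 was lowest. The difference on the log2 scale was 1.17 (SE 0.21, 95% confidence interval 0.72 to 1.63, adjusted p = 0.002104).

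Junb, whose product pairs like Jun but activates more weakly and restrains the growth of myeloid progenitors, had 1553, 1864, 2321 and 1622 normalised counts in the NA libraries. The WT libraries had 402, 1983, 1010 and 856. WT2 lay above 3 of the 4 NA libraries, and the log2 fold change of 0.99 (SE 0.33) was just past the threshold (adjusted p = 0.04763). The call was lost in 7 of the 8 fits that left out 1 library, with the added value at 0.5 in place of 1, with no filter on low values, under total-count scaling and without the variance trend. Without WT2, the exception, the change was 1.37 (adjusted p = 0.002346).

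Jund encodes the Jun protein usually present in resting cells and less inducible than the others. Jund had 185, 187, 158 and 85.0 normalised counts in the NA libraries and 66.6, 96.3, 71.7 and 58.6 in the WT libraries. NA4 lay below WT2, and the other 3 NA libraries were above all WT libraries. Jund rose by 1.02 on the log2 scale (SE 0.25, adjusted p = 0.01333). Within groups, Jund and Batf were the members tested whose lowest WT library was WT4 and whose coefficient of variation was larger in NA than in WT, for Jund 31.0% against 22.2%.

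Atf3 encodes a stress-induced partner that represses as a pair with itself and can activate together with Jun. Atf3 had 208, 424, 420 and 298 normalised counts in the NA libraries. The WT libraries had 165, 207 and 95 in WT2, WT3 and WT4, and Atf3 was listed at 0 in WT1. The groups did not overlap, but the gap between NA1 and WT3 was under 1 normalised count. The log2 fold change of 2.93 (SE 1.2, 95% confidence interval 0.36 to 5.50) missed the threshold (adjusted p = 0.1056). Without WT1 it was 1.12 with an SE of 0.27, and passed (adjusted p = 0.01448).

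Maff encodes a small Maf protein, with a zipper but no activation domain, which pairs with other bZIP proteins or with itself. Maff had 152, 236, 257 and 180 normalised counts in the NA libraries and 10.7, 195, 34.2 and 66.6 in the WT libraries. WT2 lay above NA1 and NA4, and the WT values spread 18.3-fold. Maff rose by 2.07 on the log2 scale (SE 0.59, adjusted p = 0.02569). The call was lost without NA2, NA3, NA4 or WT3, at adjusted p-values from 0.05765 to 0.06754, and also with no filter on low values (0.1111) and without the variance trend (0.1028).

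Batf, whose product pairs with Jun proteins and lacks an activation domain, was the member lower in NA MPPs. Batf had 93.3, 80.8, 158 and 102 normalised counts in the NA libraries and 175, 179, 212 and 166 in the WT libraries. All NA libraries lay below all WT libraries, with NA3 nearest to them. Its log2 fold change was -0.79 (SE 0.20, 95% confidence interval -1.21 to -0.37, adjusted p = 0.01409). Its WT values lay closer together than its NA values, with coefficients of variation of 10.9% and 31.4%.

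**Figure D2:**
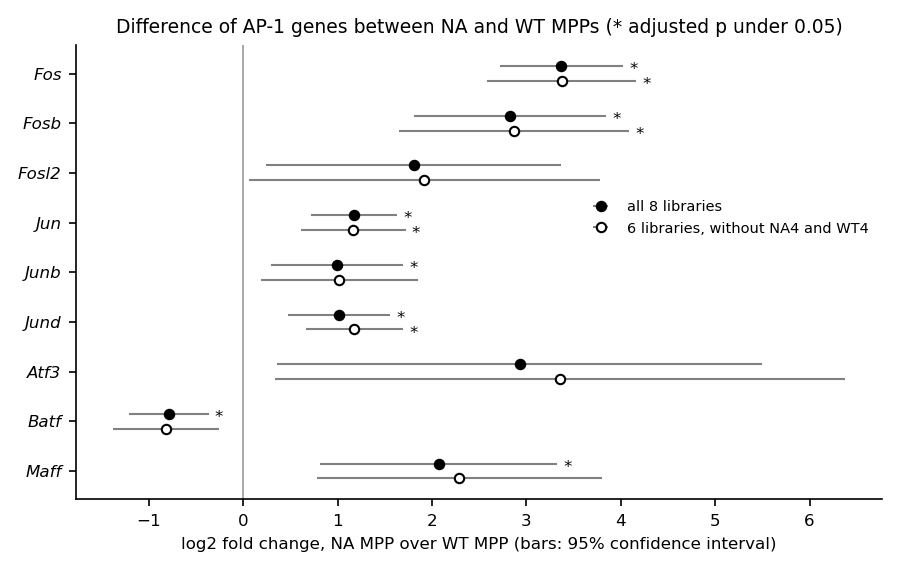
Log2 fold changes of NA MPP over WT MPP are plotted for the 9 AP-1 genes tested, with 95% confidence intervals not adjusted for the number of genes, from all 8 libraries (filled) and from 6 libraries without NA4 and WT4 (open). Stars mark adjusted p under 0.05: 7 genes with 8 libraries and Fos, Fosb, Jun and Jund with 6.

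NA4 and WT4 stood apart from the other libraries. Each library was fitted as a weighted sum of the other 3 of its group, over genes with at least 200 reads on average. The variance left beyond counting was 0.141 (WT4) and 0.274 (NA4) of that of a single library, against 0.615 to 2.82 in the other 6 libraries. The value of WT4 lay between those of other WT libraries in 7 of the 9 members tested. That of NA4 lay between those of other NA libraries in 6, as did that of NA2. The remaining libraries lay between others of their group in 2 to 5 members. Without both libraries the test called 524 of 11451 genes, or 4.58%, and 4 of the 9 members. These 4 were Fos (3.37, adjusted p = 0.0001519), Fosb (2.87, adjusted p = 0.01059), Jun (1.16, adjusted p = 0.02107) and Jund (1.18, adjusted p = 0.0124). Junb (1.02, adjusted p = 0.1552), Maff (2.29, adjusted p = 0.08104) and Batf (-0.82, adjusted p = 0.09257) kept their directions and did not pass. Fos, Fosb, Jun and Jund passed in all 8 fits that left out 1 library and in all 12 other alternatives.

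Depth separated the libraries as well, with 3876906 to 3960938 estimated reads in NA4, WT2 and WT3 and 4779631 to 4916987 in the other 5. Within the shallower 3 libraries the log2 difference of NA minus WT was 2.65 for Fos, 1.59 for Fosb, 0.63 for Jun, 0.20 for Junb and 0.03 for Jund. Within the deeper 5 it was 4.06, 3.92, 1.66, 1.68 and 1.48, in the same order. NA4 was the only NA library of the shallower class, and the deeper WT libraries were WT1 and WT4. WT1 was the lowest WT library for Fos, Fosb, Jun and Junb, so depth and the choice of libraries cannot be told apart here. Batf was lower in both classes (-0.93 and -0.68). With log2 depth as a covariate the test again called 7 members, and the part of depth in these differences was not tested further.

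Per kilobase of exon, Fos was the most abundant member of both groups, at 8689 ± 283 normalised counts per kb (SD, n = 4) in NA and 956 ± 478 in WT libraries. Junb followed with 800 ± 151 and 462 ± 289, and then Jun with 361 ± 20.3 and 170 ± 63.6. Fosb stood at 235 ± 43.5 and 43.2 ± 30.2, and Atf3 at 157 ± 48.4 and 54.3 ± 42.1. In WT MPPs Batf (130 ± 14.2) stood next to Jun, within the spread of Jun, and Fosb, Jund (43.9 ± 9.74), Fosl2 (34.6 ± 43.0) and Maff (29.5 ± 31.7) were not separated from Atf3 or from each other beyond their spread. In NA MPPs Jund (92.2 ± 28.6), Fosl2 (80.7 ± 47.7), Maff (79.4 ± 18.7) and Batf (77.1 ± 24.2) likewise did not differ from each other beyond their spread. The order of Batf and Fosb per kb was thus opposite in the groups, with Batf above Fosb in WT and below it in NA. This order rests on exon lengths merged over all transcripts of a gene, 6243 bases for Fosb and 1406 for Batf. In counts not divided by length, mean Fosb was above mean Batf in WT too (270 against 183), within the spread of Fosb (SD 189).

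The summed Fos family (Fos, Fosb and Fosl2) stood at 8639 to 9478 normalised counts per kb in NA libraries and at 355 to 1505 in WT libraries. The summed Jun family (Jun, Junb and Jund) stood at 1095 to 1452 in NA and at 306 to 1124 in WT, so that WT2 passed NA4. The ratio of Fos to Jun family was from 6.53 to 7.89 in NA libraries and from 1.16 to 1.96 in WT libraries, without overlap. Fos made up 95.5% to 97.5% of its family in NA and 88.4% to 96.3% in WT, the lowest value being that of WT2. Junb was the largest part of the Jun family in all 8 libraries, with 57.7% to 69.5% in NA and 57.1% to 76.7% in WT.

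**Figure D3:**
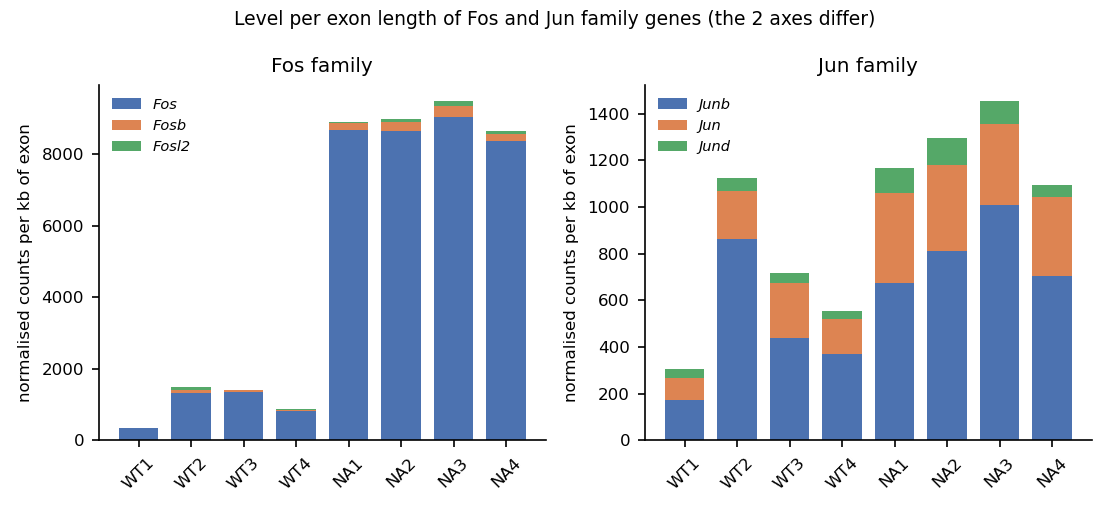
Stacked bars give normalised counts per kilobase of exon for the Fos family (left) and the Jun family (right) in each library, on axes that start at 0 and differ in scale. The Fos family stands at 8639 or more in NA libraries and at 1505 or less in WT libraries, whereas the Jun family of WT2 (1124) lies above that of NA4 (1095).

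Within the WT group, most members had their lowest value in the same library. Of the 8 members tested other than Batf, 7 had their lowest WT value in WT1, and Jund was the exception. The highest WT value was that of WT2 for Fosb, Fosl2, Junb, Jund and Maff and that of WT3 for Fos, Jun and Atf3. In the NA group the lowest value was that of NA1 or NA4 in all 8 and the highest that of NA3 in 5 of 8. The coefficient of variation was larger in WT than in NA in 7 of 8, again except Jund. These places are descriptions of 4 libraries per group, and members of a library share its cells and handling. The shares of all genes with such places or spreads were not counted, so they are not shown to be particular to AP-1 genes. WT1 also had the smallest total of normalised counts of the 8 libraries (4243171).

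**Figure D4:**
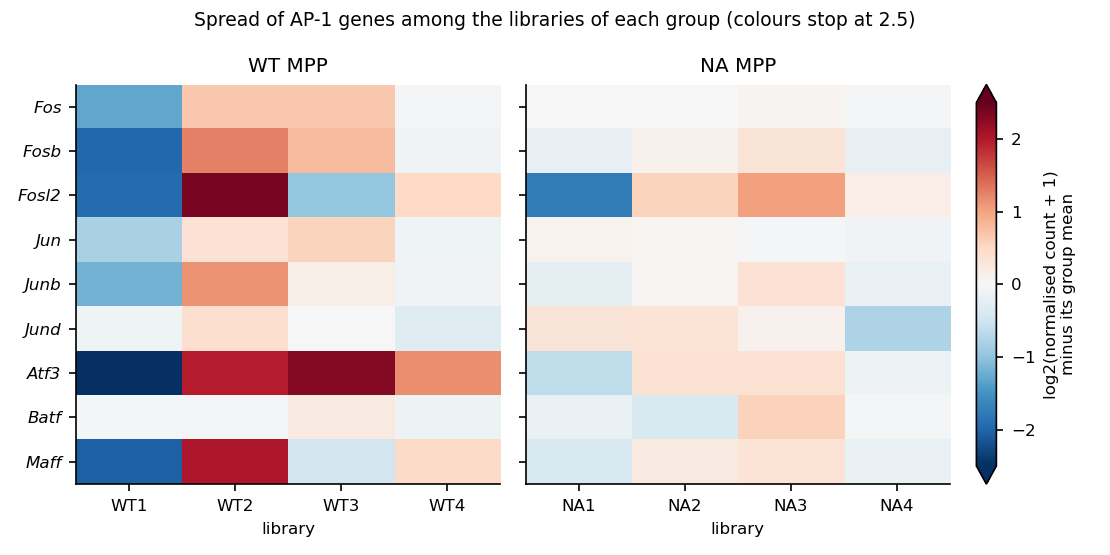
Colours give log2(normalised count + 1) minus the group mean for each AP-1 gene tested (vertical axis) in each library (horizontal axis), in the WT (left) and NA (right) groups, and stop at 2.5 in either direction. Jund and Batf are pale in the WT group. In the other genes WT1 is blue, below the scale for Atf3. In the NA group Fosl2 of NA1 departs most.

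The genes with the profile most like that of Fos over the 8 libraries, among 9000 genes that averaged 50 normalised counts or more, were Rest, Fosb and Spint2. Their root mean square distances on the centred log2 scale were 0.418, 0.439 and 0.445. Rest, which encodes a repressor of neuronal genes, had 711 to 853 normalised counts in NA and 33.7 to 106 in WT libraries. Spint2, an inhibitor of serine proteases, had 728 to 952 and 36.4 to 174. For Jun the nearest were Tgoln1, a trans-Golgi protein (0.140), Nfkbiz, an inducible member of the IκB family (0.174), and Dusp1, a MAP kinase phosphatase (0.183). Dusp1 had 2738 to 3715 normalised counts in NA and 811 to 1579 in WT libraries. Both searches covered both groups, so they favour genes with a like difference between NA and WT.

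Immediate early genes outside AP-1 were higher in NA MPPs as well. Of 22 listed genes 19 were tested, and 12 were called higher and 0 lower (15 and 0 at an unadjusted p under 0.05, limma). Over all genes 10.1% were called higher and 7.87% lower. The median log2 fold change of the list was 1.37 against -0.01 over all genes. Egr1, a zinc finger factor induced with Fos, had 5419 ± 638 normalised counts (SD, n = 4) in NA and 904 ± 293 in WT libraries, a log2 fold change of 2.64 (adjusted p = 6.997e-07). Btg2, an antiproliferative gene, changed by 1.51 (adjusted p = 0.02415) and lost its call without NA4 and WT4 (adjusted p = 0.09443). Without those libraries 6 of the 19 were called, beside 4.58% of all genes. The summed counts of the list were 23212 to 31179 in NA libraries and 6053, 17980, 14823 and 11151 in WT1 to WT4, with WT1 lowest as for most AP-1 genes.

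Of 10 genes of heat shock and tissue dissociation tested, 2 were called higher and 1 lower, near the shares over all genes (10.1% and 7.87%). The median log2 fold change was -0.04, and the summed counts overlapped (23258 to 24881 in NA, 22884 to 25524 in WT). Dnajb1 (0.45, adjusted p = 0.03177) and Dnaja1 (0.25, adjusted p = 0.0486), both co-chaperones of Hsp70, were higher, and the mitochondrial chaperonin Hspe1 was lower (-0.40, adjusted p = 0.01452). All 3 lost the call without NA4 and WT4 (adjusted p = 0.124, 0.2695 and 0.1581). Hspa1a and Hspa1b, the heat-inducible Hsp70 genes and chosen after their values were seen, were at most 3.55 normalised counts in any library. How long the cells of either group were handled before lysis is not given in the sources used here, and its part in the AP-1 values was not tested.

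Upstream of Fos and Jun, 34 Ras and MAP kinase genes were tested, of which 3 were called higher and 2 lower, near the shares over all genes (10.1% and 7.87%). Their median log2 fold change was -0.04. Rps6ka5, the kinase MSK1 that phosphorylates histone H3 and Creb at immediate early genes, rose (1.45, adjusted p = 0.002697), as did Map3k3 (1.22, adjusted p = 0.003828). Mapk8, the Jun kinase JNK1, also rose (0.53, adjusted p = 0.01127), and Rps6ka1 (-0.46, adjusted p = 0.0277) and Araf (-0.43, adjusted p = 0.01346) fell. Without NA4 and WT4, Rps6ka5 and Map3k3 stayed called, and Mapk8 (adjusted p = 0.08304), Rps6ka1 (0.1859) and Araf (0.07512) did not. The log2 fold changes of Mapk3 (-0.19), Mapk9 (0.11) and Mapk14 (-0.16), the ERK1, JNK2 and p38 alpha genes, did not pass (adjusted p from 0.2413 to 0.4609). RNA does not measure the activity of these kinases.

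Of 11 factors that bind Fos and Jun promoters, 1 was called higher and 0 lower (1 and 1 at an unadjusted p under 0.05, limma). The shares over all genes were 10.1% and 7.87%. Mef2c, which binds the Jun promoter, rose by 0.49 on the log2 scale (adjusted p = 0.002223). Srf, the serum response factor, had a log2 fold change of -0.28 (adjusted p = 0.1667), and its cofactor gene Elk1 of -0.30 (adjusted p = 0.5266).

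Among 18 other bZIP genes tested, possible partners of the members, 4 were called higher and 0 lower (8 and 1 at an unadjusted p under 0.05, limma), beside 10.1% of all genes called higher. Maf, a large Maf protein, changed by 1.11 (adjusted p = 0.01436) and Atf1, a Creb relative, by 0.48 (adjusted p = 0.01292). Atf2 (0.46, adjusted p = 0.02278) and Creb1 (0.31, adjusted p = 0.03785) were the other 2. Without NA4 and WT4, 0 of the 18 were called (6 higher and 0 lower at an unadjusted p under 0.05, limma), beside 4.58% of all genes.

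Of 11 genes for the turnover of Fos and Jun RNA and protein, 4 were called higher and 0 lower (5 and 0 at an unadjusted p under 0.05, limma). Over all genes 10.1% were called higher and 7.87% lower. Zfp36 is also in the immediate early list above. Zfp36, which binds AU-rich elements of short-lived RNA such as Fos and promotes its decay, had 4088 ± 469 normalised counts (SD, n = 4) in NA and 2717 ± 793 in WT libraries, a log2 fold change of 0.64 (adjusted p = 0.02221). Its relative Zfp36l1 changed by 0.70 (adjusted p = 0.04573). Both lost the call without NA4 and WT4 (adjusted p = 0.1156 and 0.2328). Zfp36l2, a further relative and chosen after its values were seen, changed by 0.58 (adjusted p = 0.0002627) and stayed called without those libraries (adjusted p = 0.00401).

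Of 20 textbook AP-1 target genes, 11 were under 10 normalised counts in all 8 libraries and 9 were tested. Among these 9, 0 were called in either direction (2 higher and 0 lower at an unadjusted p under 0.05, limma), beside 17.9% of all genes. Their median log2 fold change was 0.24. Ptgs2, which encodes the inducible prostaglandin synthase and was chosen after its values were seen, had 50.4 to 213 normalised counts in NA libraries and 0 to 97.4 in WT libraries, with WT1 at 0. Its log2 fold change of 2.69 (SE 1.03) did not pass (adjusted p = 0.08663).

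**Figure D5:**
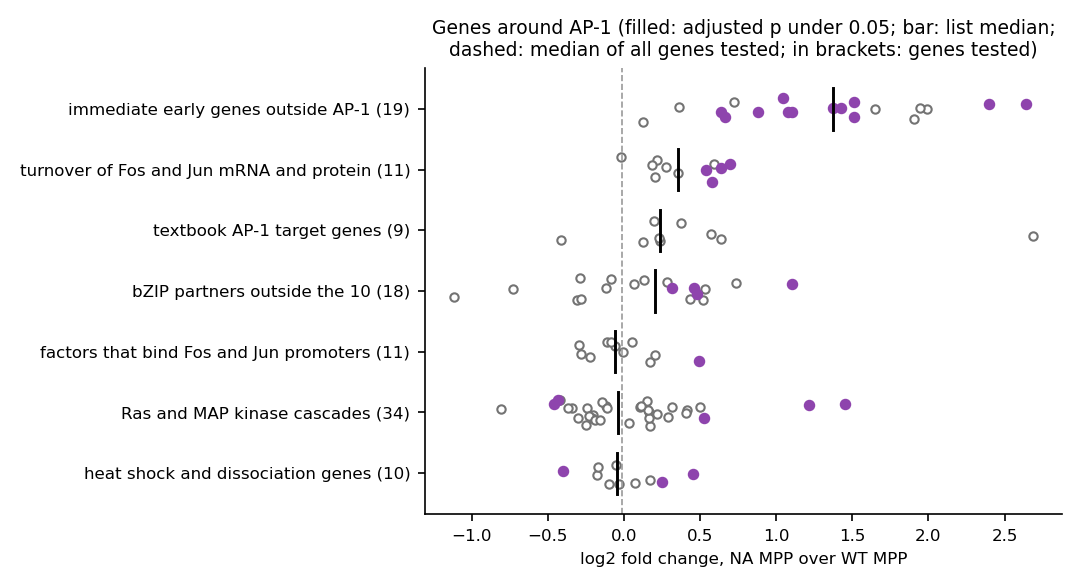
Each point is the log2 fold change (horizontal axis) of 1 gene of the lists around AP-1, filled where adjusted p was under 0.05, with a bar at each list's median and a dashed line at the median of all genes tested (-0.01). The immediate early genes lie to the right with a median of 1.37, while the medians of the MAP kinase, promoter factor and heat shock lists lie within 0.1 of 0.

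Other differences between the libraries moved with the groups. Hoxa10, whose homeodomain is part of the fusion, had 324 ± 32.0 normalised counts in NA libraries and 139 ± 8.0 in WT libraries (SD, n = 4), with adjusted p = 2.574e-05. Xist was at 869 or more in every WT library and at 2.80 or less in every NA library, and Y-linked transcripts were found in NA, so that for the AP-1 genes genotype and the sex of the mice cannot be told apart. Of the sorted markers, Kit, Flt3 and Cd34 did not pass, and Ly6a was lower in NA (-0.28, adjusted p = 0.02574). Cd48, by which cells had been removed, was lower too (-1.58, adjusted p = 0.007114), with values of 12.2 to 22.4 in NA and of 34.2 to 83.8 in WT. Ly6a and Cd48 both lost the call without NA4 and WT4 (limma, adjusted p = 0.1629 and 0.0675).

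Marker genes of other cells were summed by list, and every sum was below Fos in the NA libraries. In WT1 the monocyte (1904), megakaryocyte (2734) and mast cell (813) sums were above Fos (804). In WT4 the megakaryocyte sum (2734) was above Fos (1904). The 8 erythroid markers (2 at 0 in all libraries) summed to 40.6 to 77.1 normalised counts in NA and to 138 to 243 in WT. The 8 neutrophil markers (2 at 0) summed to 18.8 to 36.0 and 39.1 to 369, the highest being WT3. The 8 T cell markers (6 at 0, Cd3e among them) summed to 113 to 200 and 183 to 302, and the 8 B cell markers (3 at 0, Pax5 and Ms4a1 among them) to 101 to 239 and 182 to 269. The 8 monocyte and macrophage markers (0 at 0) summed to 1716 to 1798 in NA and to 1817 to 2127 in WT. The 8 megakaryocyte markers (1 at 0) summed to 2795 to 3089 and 2616 to 2771, the 8 mast cell and basophil markers (5 at 0) to 1068 to 1257 and 813 to 1014, and the 8 stromal and endothelial markers (1 at 0) to 168 to 329 and 154 to 203. Of these markers, Hbb-bt (-1.99, adjusted p = 6.786e-05), Mpo (-1.50, adjusted p = 0.0422) and Lck (-0.64, adjusted p = 0.03705), of red cells, neutrophils and T cells, were lower in NA MPPs. Gata2, of mast cells and basophils but also of early progenitors, was higher (0.33, adjusted p = 0.02754). Without NA4 and WT4 only Hbb-bt stayed called (adjusted p = 0.0028). The part of such cells in the AP-1 values was not tested.

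Some members share exon bases with a gene on the opposite strand, and whether the counting used strand is not given in the sources used here. Junb shares 173 bases with Prdx2, a peroxidase gene with 1760 ± 111 normalised counts (SD, n = 4) in NA and 2311 ± 66.4 in WT libraries, a log2 fold change of -0.39 (adjusted p = 0.002545), opposite in sign to Junb. Jun shares 232 bases with Junos, at 7.99 normalised counts or less, and Jund shares 877 bases with Gm11175, at 14.8 or less. Without strand, reads from such overlaps cannot be told apart.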

How the data were processed

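Each library was made from amplified cDNA of 1000 sorted MPPs. Per the labels, the submitters' processing notes name bcl2fastq, RSEM, DESeq2 and mm10. Although labelled as raw counts, the deposited values are a signal already scaled by the authors, RSEM gene counts over a size factor for each library (here normalised counts). In each library from 98.3% to 98.9% of low values (under 20 reads) were whole multiples, within 0.02 reads, of a step, which gave depth. The planned count tests were not run, because other values were fractions of reads. Genes that reached 10 normalised counts in 4 or more libraries were tested with limma 3.58.1 (R 4.3.3) on log2(normalised count + 1) with a variance trend, NA against WT, and Benjamini-Hochberg adjustment. This scale understates changes of low genes. On simulated data with 94 genes changed 2-fold and 106 changed 4-fold among 11451, the fit called 86.2% and 99.1%, and 5.1% of its calls were false. The simulation gave every gene the median spread and independent libraries. These rates therefore do not carry over to members with a wider spread or to libraries that are not independent. GENCODE M21 named 32916 of 37980 rows and gave exon lengths. RefSeq gave promoters, for 9 of 10 members (not Fosl1). Members, gene lists and tests were chosen with earlier results of these data known. Named were all members, Hoxa10, gate markers, direct upstream kinases and factors, the 2 highest and 2 lowest called changes of each list (mean of at least 50), and the 3 profiles nearest to Fos and to Jun. 1 gene of this rule is not reported here. Groups came from sample titles. Alternatives are in the closing section. Intervals cover the spread between libraries, and amplified reads without molecular identifiers are not independent molecules.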

Additional observations from a re-analysis of the deposited data

Results flagged for a closer look

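Of 42 groups of 4 values examined, 3 held a library far from the other 3, where chance gives about 1 in 20 groups. The groups were the 9 members tested as normalised counts and on the log2 scale, depth, the share of the 10 highest genes and the ratio of Fos to Jun family, each in NA and in WT. Atf3 in WT1, listed at 0, stood at 0 as log2(normalised count + 1), while WT2, WT3 and WT4 had 6.58 to 7.70. On normalised counts Atf3 in WT1 was not that far from its group. The depth of NA4 was 3887855 estimated reads, while NA1, NA2 and NA3 had 4909391 to 4916987. The 10 highest genes took 10.2% of the normalised counts of NA3 and 12.2% to 12.5% of those of the other NA libraries, and NA3 was the library with the highest Fos count.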

How the results depend on the processing

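Over 20 alternatives, 0 members changed direction. The count of members called stayed within 1.5 times of 7 except without the fourth libraries, where 4 were called, and 524 genes were called in place of 2053. That fit has 6 libraries. Leaving out 1 library at a time gave 1125 to 2176 genes called and 5 to 8 members called, with the counts 1125 without NA4 and 1279 without WT4. Junb and Maff were the members whose call other settings ended, as given above. Among the genes called, 56.1% were higher in NA, and 41.3% under total-count scaling, which moved the median of all genes to -0.08; Fos, Fosb, Jun, Jund, Maff and Batf kept their calls there.

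Replicate numbers were shared by the groups, but the labels do not say that they pair libraries. The correlation of deviations across genes was 0.09, 0.03, 0.01 and 0.16 for same-numbered libraries. It ran from -0.09 to 0.10 for different-numbered libraries, and 4 of 8 libraries were closest to their own number. These values do not settle whether the numbers are pairs, and the main test took the libraries as unpaired. With a replicate block 2004 genes and 9 of 9 members were called. Fosl2 (adjusted p = 0.01614) and Atf3 (adjusted p = 0.03815) were added. The 2 planned count models were not run.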
